A study of Mus musculus with 2 samples.

Results

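The cells described here are those that the depositors numbered as all-cell cluster 10, a population with the transcripts of pericytes and vascular smooth muscle. The cluster number in the deposited cell table picked 763 cells of the 23528 cells in the file, which fall into 29 clusters. Of these, 212 were among the 9708 cells of the control library and 551 among the 13820 cells of the mutant library.

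Single-cell RNA sequencing with 10x Genomics 3' chemistry was done on the cervical loop region of mouse incisors at postnatal day 20. The control library came from 1 mouse labelled only as control, and the mutant library from 1 mouse labelled Memo1;K14CRE, in which Cre driven by the keratin 14 promoter acts on Memo1. Keratin 14 is a gene of epithelium, and the cells described here are not epithelial. Tissue was taken from both epithelium and mesenchyme and dissociated with trypsin and dispase. The study's question concerned ameloblasts, the enamel-forming epithelium; the vessel wall is described here for its own sake. With 1 library per group there is no measure of the spread between mice, so no test was made. "Higher" and "lower" describe these libraries, and intervals are exact 95% intervals that cover counting error only.

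Pericytes and vascular smooth muscle cells are together called mural cells. Pericytes sit within the basement membrane of capillaries and receive PDGF signals from the endothelium through the receptor Pdgfrb. Smooth muscle cells surround arterioles and larger vessels and contract through actin, myosin 11 and their regulators. Their contractile genes are classic targets of serum response factor and its partner myocardin, and Notch3 signalling from the endothelium is needed for the arterial form.

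The labelled identity was checked against its marker genes. Levels are given as CPM, the usual scaling of a gene's counts by the total counts of the same cells. Rgs5, a regulator of G protein signalling typical of pericytes (chr1:169655501-169695813, plus strand, GRCm38 with GENCODE M21), was at 18066 CPM in control and 16922.5 CPM in mutant cells. Acta2, the smooth muscle alpha actin (chr19:34241090-34255590, minus strand), was at 2935 CPM and 5145 CPM. Actg2, the smooth muscle gamma actin (chr6:83512905-83536265, minus strand), was at 52.7 CPM and 237 CPM. All 3 were higher here than in any of the other clusters when both libraries were summed. Rgs5 came next at 651 CPM in cluster 11, Acta2 at 688 CPM in cluster 7 and Actg2 at 16.5 CPM in cluster 11. The order held within each library as well: the next levels were 235 CPM (control) and 1230 CPM (mutant) for Rgs5, both in cluster 11, and 827 CPM in cluster 13 (control) and 770 CPM in cluster 7 (mutant) for Acta2.

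**Figure D1:**
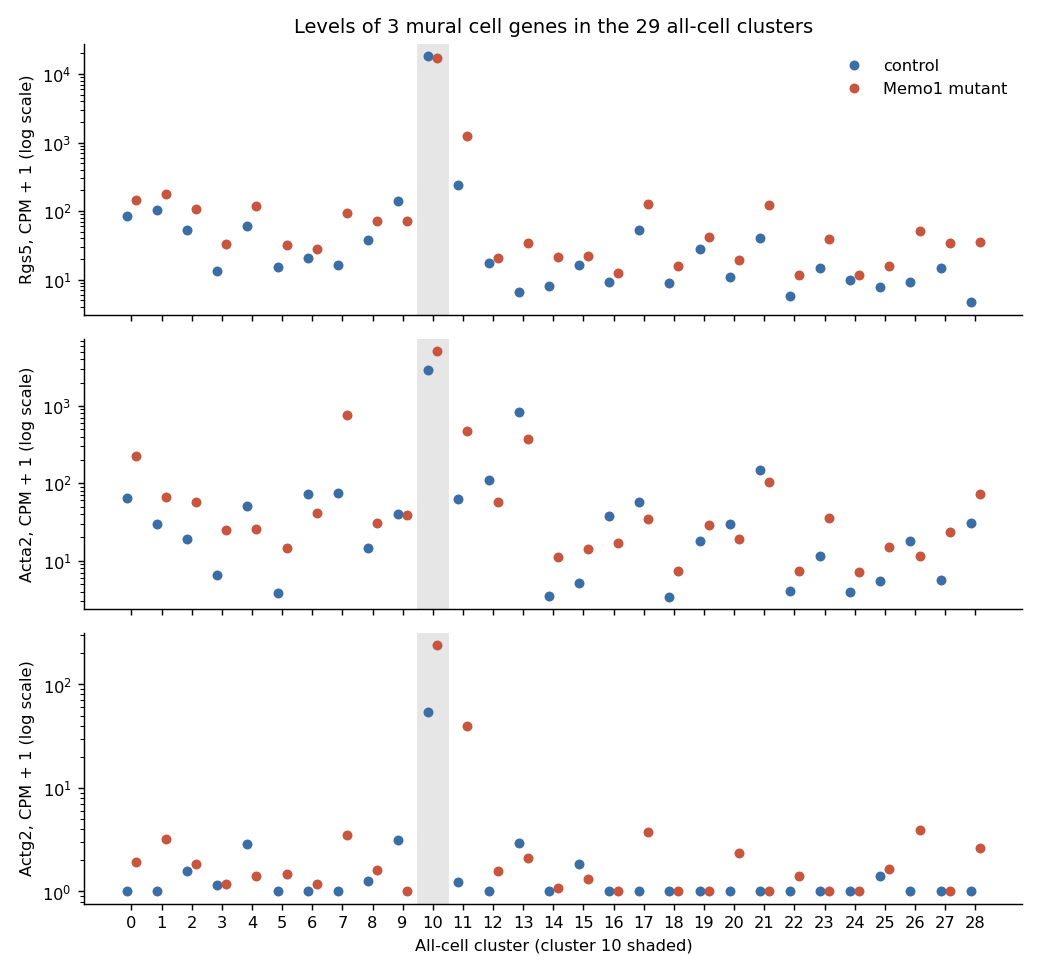
Level of Rgs5, Acta2 and Actg2 (CPM + 1, log scale) in each of the 29 all-cell clusters, 1 point per library, with cluster 10 shaded. Both libraries peak in cluster 10 for all 3 genes, and the gap to the next cluster is widest for Rgs5 (17259 CPM over both libraries against 651 CPM in cluster 11).

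The cells of cluster 10 held 1840486 UMIs (unique molecular identifiers, the counted molecules) in the control and 4418200 UMIs in the mutant library. The median cell had 7302.5 and 7316 UMIs, and 18.4% of control and 13.6% of mutant cells lay under 1000 UMIs. The median share of mitochondrial counts was 8.65% and 8.19%. No cell barcode of the cluster occurred in both libraries, against 139 over all cells. Xist, the transcript of the inactive X chromosome, had 0 counts in the control and 4379 in the mutant, while the Y-linked Ddx3y had 100 and 0 and Eif2s3y 96 and 0. The mice thus differ in sex as well as genotype, and these cannot be told apart. Memo1, the targeted gene, was sparse, with 32 control and 95 mutant counts (17.4 CPM and 21.5 CPM), a mutant over control ratio of 1.24 (0.821 to 1.91). The part of Memo1 that is deleted is not given, so this does not check the label.

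Markers of other cell types were present at very different levels. Markers of endothelium summed to 88.0 CPM in control and 143 CPM in mutant cells, against 8777 CPM and 8019 CPM in the endothelial clusters 8, 9 and 15. The markers of Schwann cells summed to 5.43 CPM and 8.60 CPM, those of skeletal muscle to 1.63 CPM and 2.04 CPM. Markers of macrophages and monocytes summed to 197 CPM and 464 CPM, and those of ameloblasts to 4330 CPM and 1261 CPM. Red cell genes summed to 1013 CPM and 185 CPM. At least 2 endothelial markers were found in 8.96% of control and 12.0% of mutant cells, at least 2 macrophage markers in 27.4% and 28.9%, and at least 2 ameloblast markers in 89.2% and 72.8%. Markers of fibroblasts summed to 2698 CPM and 2500 CPM, with at least 2 of them in 67.0% and 76.6% of cells, and markers of dental pulp mesenchyme to 791 CPM and 1027 CPM, with at least 2 in 59.0% and 71.7%. The part of these transcripts in the differences below was not tested.

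Beside Rgs5 and Acta2, the genes standing farthest above the mean of the other clusters included known genes of the vessel wall. The first 10 were Rgs5, Ndufa4l2, Fabp4, Aspn, Col5a3, Acta2, Notch3, Aoc3, Mustn1 and Myh11. Since the clustering used all genes of these cells, this order is a description. Ndufa4l2, a hypoxia-induced mitochondrial protein common in pericytes, was at 1431 CPM, where cluster 11 came next at 66.3 CPM. Notch3, the Notch receptor of mural cells, was at 777 CPM against 49.5 CPM in cluster 20. Aoc3, the vascular amine oxidase of smooth muscle, was at 402 CPM against 13.96 CPM in cluster 11. Myh11, the smooth muscle myosin heavy chain, was at 667 CPM against 120 CPM in cluster 13. Fabp4, a fatty acid carrier better known from fat cells and endothelium, was at 1586 CPM, while endothelial cluster 8 came next at 105 CPM. Aspn (asporin), a small leucine-rich proteoglycan known from the periodontal ligament, was at 857 CPM and next at 95.03 CPM in cluster 7. Col5a3, a collagen chain, was at 903 CPM against 76.8 CPM in cluster 26.

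The next 20 genes in that order mixed markers of both kinds of mural cell. Higd1b, Steap4, Abcc9 and Kcnj8 are pericyte genes, and the last pair encodes the subunits of a vascular ATP-sensitive potassium channel. Tagln, Lmod1, Ppp1r14a and Actg2 belong to the contractile apparatus, and Casq2 stores calcium in the sarcoplasmic reticulum. Ebf1, a transcription factor, was at 1428 CPM and next at 292 CPM in endothelial cluster 8. Gucy1a3, a subunit of the nitric oxide receptor that relaxes vessels, was at 452 CPM, and Kcnk3, a background potassium channel, at 196 CPM.

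Over 19626 genes, the clusters whose profiles ranked most like cluster 10 were cluster 7 (Spearman's rho 0.916), cluster 3 (0.908) and cluster 0 (0.906), where the median cell of cluster 0 had only 767 UMIs. These values are descriptions, since clusters share the libraries and their free RNA. Cluster 7 differed in the very genes that mark pericytes. It held 84.0 CPM of Rgs5, 18.1 CPM of Notch3 and 182 CPM of Pdgfrb, against 17259 CPM, 777 CPM and 768 CPM in cluster 10. The endothelial clusters ranked lower (0.894, 0.892 and 0.890).

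The cluster ran between 2 poles that the depositors' numbering did not separate. Each cell with at least 1000 UMIs was thinned to 1000 UMIs and put on the smooth muscle side if UMIs of 8 smooth muscle genes (Myh11, Cnn1, Actg2, Lmod1, Des, Tagln, Acta2 and Myl9) outnumbered those of 8 pericyte genes (Rgs5, Kcnj8, Abcc9, Pdgfrb, Cspg4, Notch3, Higd1b and Mcam), and otherwise on the pericyte side. The sides are ranges of a score, not types. In the control 20 of 173 cells lay on the smooth muscle side, 11.6% (7.21% to 17.3%, Clopper-Pearson), and in the mutant 128 of 476, 26.9% (23.0% to 31.1%). Within 2 UMIs of the boundary lay 3 control and 20 mutant cells. At least 5 UMIs of both gene sets were held by 36 control and 158 mutant cells. At full depth the shares were 9.43% and 24.9%. The intervals of this 8-gene score do not overlap, but they say nothing of the spread between mice. The share of arterioles in each dissected piece was not measured. Leaving Acta2, Tagln and Myl9 out of the score left 2.89% of control and 6.72% of mutant cells on the smooth muscle side. No intervals are given for these smaller shares, so they are not shown to be apart beyond counting error.

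**Figure D2:**
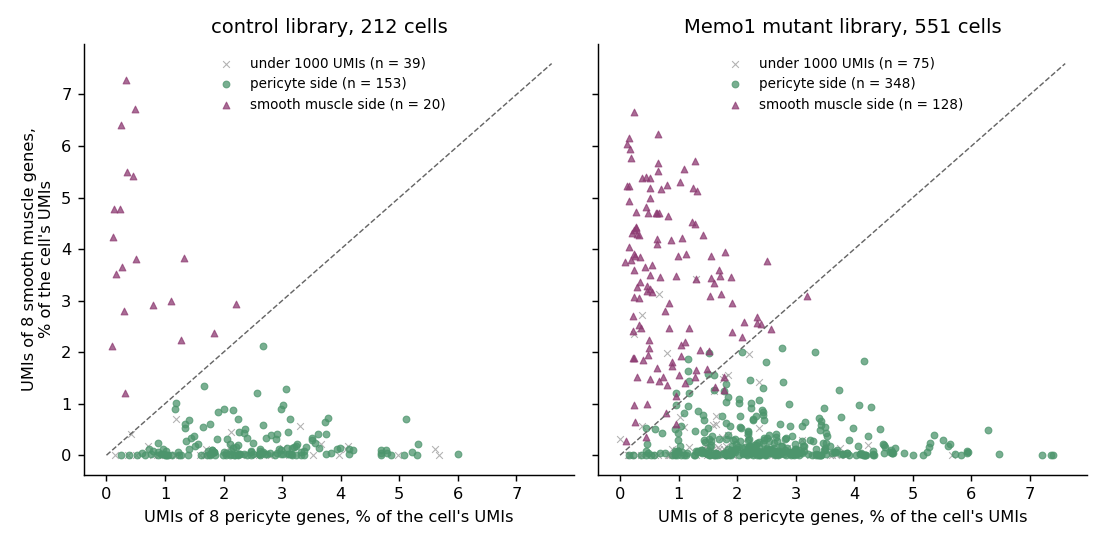
Each point is 1 cell of cluster 10, placed by the percent of its UMIs from 8 pericyte genes (x) and 8 smooth muscle genes (y) at full depth, with the control library on the left and the mutant on the right; the dashed line marks equal shares, and since sides were set on cells thinned to 1000 UMIs a few points near it lie across. In both libraries most cells lie along the x axis. The smooth muscle side holds 20 control and 128 mutant cells, not all of them on the left: 1 mutant cell lies at a pericyte share of 3.19%.

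The sides also differed in genes outside the score, named here after their values were seen. On the smooth muscle side, summed over libraries, phospholamban (Pln), which restrains the calcium pump of the sarcoplasmic reticulum, was at 480 CPM against 3.34 CPM on the pericyte side. Fbxl22, a sarcomere-associated ubiquitin ligase subunit, was at 273 CPM against 6.27 CPM, and Synpo2, an actin-bundling protein, at 249 CPM against 12.5 CPM. Npy1r, the receptor through which neuropeptide Y constricts arteries, was at 125 CPM against 3.14 CPM, and the potassium channel Kcna5 at 53.0 CPM against 1.05 CPM. Asb2, Ltbp1, Tcf15, Kcnab1, Susd5, Pgm5 and Mustn1 were also among the 15 genes leading that side. On the pericyte side Steap4 was at 569 CPM against 65.2 CPM, cytoglobin (Cygb) at 635 CPM against 69.5 CPM and tissue plasminogen activator (Plat) at 227 CPM against 16.5 CPM. The chloride carrier Slc12a2 was at 465 CPM against 52.3 CPM, and H2-M9, a histocompatibility class Ib gene, at 199 CPM against 0.717 CPM, which was 1 count. Lama2, a laminin chain of muscle and vessel basement membrane, was at 119 CPM against 5.73 CPM. These folds describe a split made on the same cells. The pericyte score gene Mcam went against its side, at 469 CPM on the pericyte side and 665 CPM on the smooth muscle side. Desmin (Des), a smooth muscle score gene, differed little in the sum of both libraries, at 30.5 CPM and 38.7 CPM (1.27, 0.910 to 1.74). Nearly all of its counts on the smooth muscle side came from mutant cells, so this sum does not describe the control library.

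Between the libraries the cluster made up 2.18% of control cells (1.90% to 2.49%) and 3.99% of mutant cells (3.67% to 4.33%). The ratio between libraries was under 2-fold in each of the 10 leading genes, though the intervals of Myh11 (up to 2.07) and Mustn1 (up to 2.10) reach past it, and of the first 30 Actg2 alone lay beyond 2-fold with its whole interval. The share was higher in the mutant library. Both shares depend on what else each suspension held. Of 9095 genes with at least 50 counts over both libraries, 243 (2.67%) were at least 2-fold higher in mutant cells and 60 (0.66%) at least 2-fold lower, and the median log2 ratio of all of them was 0.03. At 1.5-fold, 8.44% were higher and 3.45% lower.

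The contractile apparatus was higher in mutant cells. All 18 members were measured and all 18 had a ratio above 1, here and in each of 8 other ways of scaling or choosing cells (54.3% of all genes did), 3 were at least 2-fold higher (2.67% of all genes) and 10 at least 1.5-fold higher (8.44%). The median log2 ratio of the list was 0.64, against 0.03 over all genes. Acta2, Actg2, Tagln, Myh11, Lmod1 and Ppp1r14a are also among the 30 genes that describe the cluster. Actg2 stood out with 97 control and 1049 mutant counts, a ratio of 4.505 (3.66 to 5.61). Cnn1, calponin, which damps the myosin motor, rested on 87 and 551 counts, 47.3 CPM and 125 CPM, a ratio of 2.64 (2.10 to 3.35). Synpo2 rested on 60 and 349 counts, 32.6 CPM and 79.0 CPM, a ratio of 2.42 (1.84 to 3.24). At 1.78 it was no longer past 2-fold without cells that carried markers of other types. Here and below, that filter used markers of endothelium, macrophages and monocytes, Schwann cells and dental epithelium. Markers of ameloblasts, fibroblasts and dental pulp mesenchyme were not part of it. Myh11 was at 406 CPM and 775 CPM (1.91, 1.76 to 2.07), Acta2 had a ratio of 1.75 (1.70 to 1.81), and Tagln, an actin-binding protein of smooth muscle, was at 1705 CPM and 2890 CPM (1.70, 1.63 to 1.76). Toward the other end lay Myl6, a myosin light chain found in most cells (1.29), and Cald1, caldesmon, at 1995 CPM and 2097 CPM (1.05, 1.01 to 1.09).

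Pericyte genes differed little. Of 18 members, all measured, none was at least 2-fold apart, 13 had a ratio below 1 (45.7% of all genes did) and the median log2 ratio was -0.18. Rgs5 had 33251 control and 74767 mutant counts, a ratio of 0.937 (0.925 to 0.949). Pdgfrb was at 769 CPM and 767 CPM (0.997, 0.937 to 1.06) and Ndufa4l2 at 1422 CPM and 1435 CPM (1.01, 0.964 to 1.06). Cspg4, the NG2 proteoglycan, was lowest at 399 CPM and 285 CPM (0.713, 0.651 to 0.782), followed by Art3 (0.764) and Kcnj8 (0.769). Vtn, vitronectin, was the exception on the high side at 33.7 CPM and 57.9 CPM (1.72, 1.30 to 2.31).

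**Figure D3:**
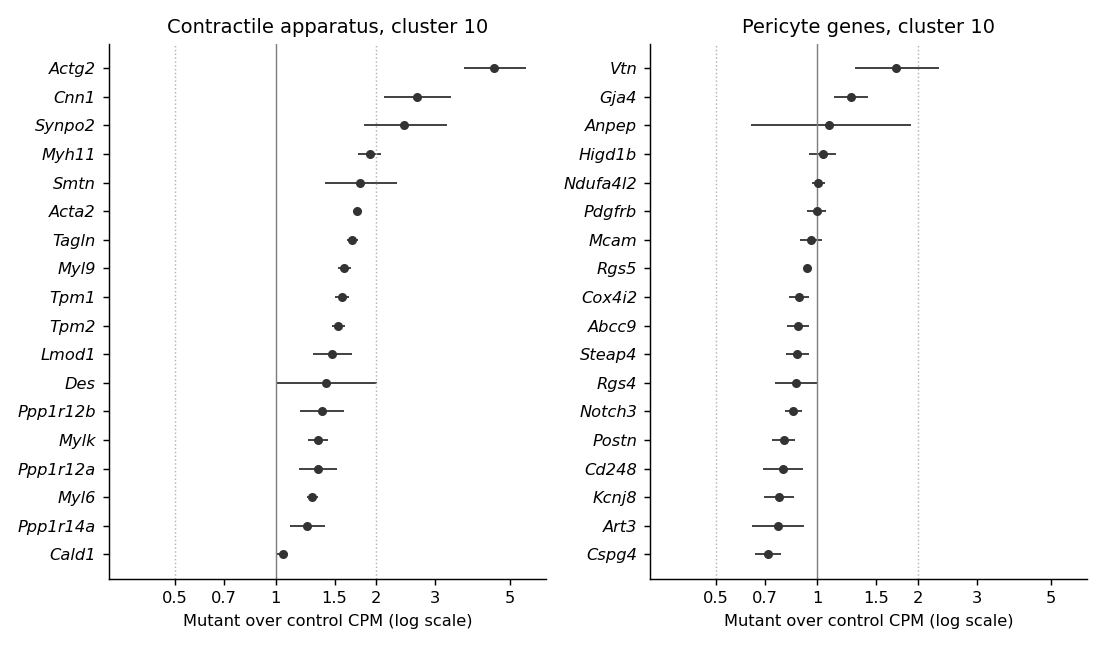
Ratio of mutant to control CPM in cluster 10 (log scale, exact 95% counting intervals) for the 18 contractile genes on the left and the 18 pericyte genes on the right; solid lines mark 1 and dotted lines 2-fold. All contractile points lie to the right of 1, from 1.05 (Cald1) to 4.505 (Actg2), while 13 of the 18 pericyte points lie to the left of it.

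Within each side the contractile genes were closer together. On the pericyte side (153 control and 348 mutant cells) Acta2 was at 1265 CPM and 1335 CPM (1.06, 1.00 to 1.11) and Tagln at 459 CPM and 410 CPM (0.892, 0.815 to 0.977). Of 17 measured members there, 11 were above 1 and 1 was at least 2-fold higher, which was Synpo2 on 12 and 48 counts. Myh11 at 196 CPM and 244 CPM (1.25, 1.09 to 1.42), Tpm1 at 875 CPM and 1057 CPM (1.21, 1.13 to 1.29) and Smtn at 23.3 CPM and 35.5 CPM (1.52, 1.04 to 2.26) were also higher in the mutant there. Their median log2 ratio was 0.08, and none was lower by 1.5-fold. Of 8262 genes on that side 55% were above 1 and 45% below, 1.94% were at least 2-fold higher and 0.545% lower, and 6.74% were at least 1.5-fold higher and 3.21% lower. On the smooth muscle side (20 and 128 cells) Acta2 was at 17923 CPM and 15225 CPM (0.849, 0.819 to 0.882), Tagln at 12852 CPM and 9463 CPM (0.736, 0.704 to 0.770), Myh11 at 2294 CPM and 2184 CPM (0.952, 0.859 to 1.06) and Cnn1 at 447 CPM and 442 CPM (0.988, 0.783 to 1.26). There 13 of 18 members were below 1, none by 1.5-fold, and 2, Actg2 and Des, were at least 2-fold higher. Of 4018 genes on that side 53.5% were above 1 and 46.5% below, 19% were at least 1.5-fold higher and 8.93% lower, and 9.01% were at least 2-fold higher and 1.74% lower. The score uses 8 of the contractile genes, which ties their level to the side. Members outside the score went both ways on the smooth muscle side. Tpm1 at 3618 CPM and 3849 CPM, Mylk at 1050 CPM and 1505 CPM, and Cald1 at 2008 CPM and 2405 CPM were higher in the mutant. The other members outside the score were lower, among them Tpm2 at 6283 CPM and 5119 CPM and Smtn at 237 CPM and 201 CPM. The library with the larger share of cells on the smooth muscle side also had the higher sums over the cluster. Most members were not higher within that side. How much of the sums the share of cells accounts for was not tested. Since the sides were cut on contractile genes of the same cells, levels within a side cannot decide it.

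Actg2 and Des were the contractile members at least 2-fold higher on the smooth muscle side, Des on 1 control and 53 mutant counts (8.14, 1.40 to 328). Actg2 was there at 135 CPM in the control (25 counts) and 753 CPM in the mutant (910 counts), a ratio of 5.59 (3.76 to 8.69). On the pericyte side Actg2 was at 44.2 CPM and 40.6 CPM (0.917, 0.682 to 1.24), on 72 and 128 counts. A single control cell held 26.8% of the 97 control counts of the cluster. That is more than the whole smooth muscle side held, so the cell lay on the pericyte side. The ratio without that cell was not computed. In the mutant 56 of the 128 smooth muscle side cells held at least 2 Actg2 UMIs. Of these, 31 (55.4%) also held Col14a1, a collagen that decorates fibrils, against 8 of the other 72 (11.1%), and 21 (37.5%) held Dcn, decorin, against 7 (9.72%). The median depth was 10207.5 UMIs in the 56 cells and 7484.5 UMIs in the other 72. Other genes looked at in this way went in both directions. Sfrp2 (23.2% against 30.6%), Avpr1a (14.3% against 23.6%) and Dmp1 (16.1% against 23.6%) were found less often in the 56 cells. Cd74 (21.4% against 13.9%), Rgs5 (96.4% against 91.7%) and Myh11 (98.2% against 93.1%) were found more often. In the control 5 smooth muscle side cells held 2 or more Actg2 UMIs and 0 of them held Col14a1, so few cells that the libraries cannot be compared on this. Rgs5 was found in 54 of the 56 cells.

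**Figure D4:**
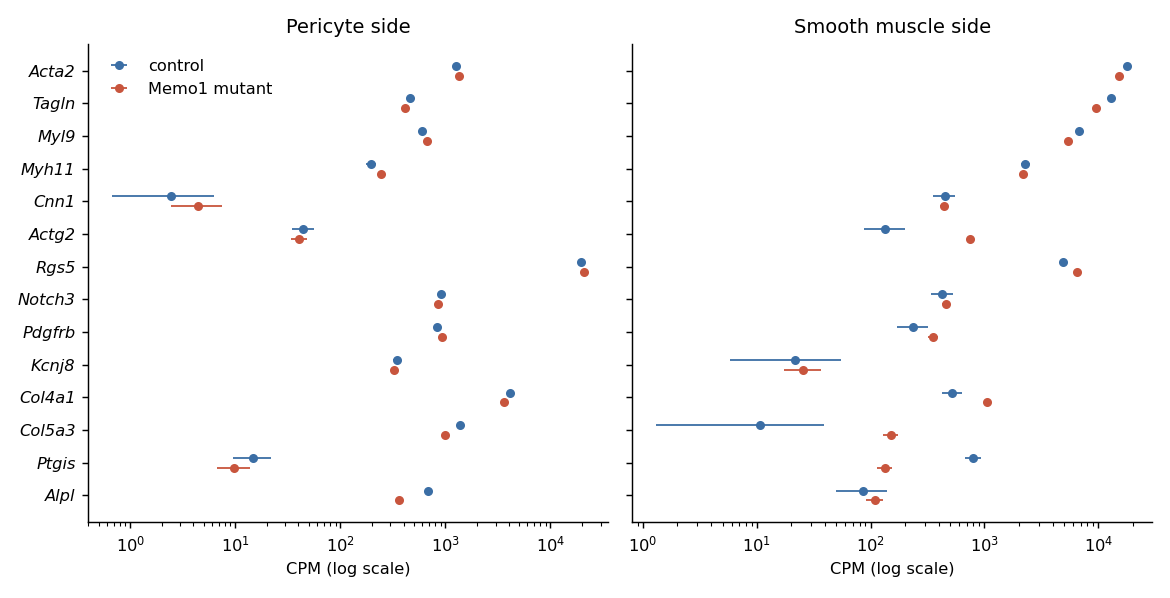
CPM (log scale, exact 95% Poisson intervals) of 14 genes on the pericyte side (left) and the smooth muscle side (right) of cluster 10, with 1 point per library. Acta2, Tagln, Myl9 and Myh11 lie close together within each side and Cnn1 on the smooth muscle side (on the pericyte side it rests on 4 and 14 counts), while Actg2 (135 CPM and 753 CPM), Col5a3 and Ptgis part on the smooth muscle side.

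The promoters of the contractile genes were searched for the CArG box, the site bound by serum response factor: CC, then 6 bases that are A or T, then GG, which reads the same on both strands. Among 32851 promoters in the RefSeq table (GRCm38.p6), 482 (1.47%) held one in the 250 bases before the start. Of 15 contractile genes with an entry, 2 did, Myl9 and Myl6, and of 13 pericyte genes 0 did. With 1 of the central bases allowed to be C or G, the share of all promoters was 8.59%, and Acta2 was added. Tagln, Myh11 and Actg2 are not matched here. The sites are shown as matches to this pattern, and capitals mark the matched bases. Whether each is a known regulatory site was not checked. GENCODE M21 has an exon of the same gene over the Acta2 and Myl6 sites, so for those genes "promoter" follows the RefSeq start only.
Myl9 (chr2:156775293-156775322, plus strand, first matched base 161 bases before the start): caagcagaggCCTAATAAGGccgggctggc
Myl9, 1 base off (chr2:156775355-156775384, plus strand, 99 bases before the start): cattcttctgCCTTGTAAGGccgggcggcc
Myl6 (chr10:128493040-128493069, minus strand, 50 bases before the start): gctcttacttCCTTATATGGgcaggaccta
Acta2, 1 base off (chr19:34255438-34255467, minus strand, 84 bases before the start): gtgctgaggtCCCTATATGGttgtgttaga
Acta2, 1 base off (chr19:34255388-34255417, minus strand, 34 bases before the start): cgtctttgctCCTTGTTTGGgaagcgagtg
The genes with these sites did not form a group by ratio: Myl9 was at 1227 CPM and 1969 CPM (1.60, 1.53 to 1.68), Myl6 at 2068 CPM and 2665 CPM (1.29, 1.24 to 1.34) and Acta2 at 1.75. A match is a description of letters and says nothing of whether the factor binds.

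Transcriptional regulators of mural cells leaned to the higher side, with a median log2 ratio of 0.25 against 0.03 over all genes. Of 14 measured members 9 had a ratio above 1 (54.3% of all genes did). None was 2-fold apart, where 2.67% of all genes were higher and 0.66% lower by that much. Mef2c, a partner of the myocardin family, was at 173 CPM and 260 CPM (interval of the ratio 1.32 to 1.70), and Tbx2 at 293 CPM and 246 CPM (0.839, 0.756 to 0.932). Among Notch genes Hes1, a target, was at 325 CPM and 549 CPM (1.69, 1.55 to 1.85), whereas the ligand Jag1 was at 393 CPM and 303 CPM (0.770, 0.703 to 0.844) and the receptor Notch3 at 868 CPM and 739 CPM (0.851, 0.801 to 0.904). On the pericyte side Hes1 was at 270 CPM and 550 CPM (2.04, 1.84 to 2.27), but on the smooth muscle side the order turned, at 818 CPM and 552 CPM (0.674, 0.564 to 0.809). Of 12 measured Notch genes 4 were above 1, against 54.3% of all genes. Among 18 genes of the TGF-beta and BMP pathway 10 were above 1 and 2 at least 2-fold higher (2.67% of all genes were): Id2, an inhibitor of bHLH factors, at 80.4 CPM and 177 CPM (2.20, 1.84 to 2.64) and the co-receptor Tgfbr3 on 14 and 72 counts. The PDGF receptor Pdgfrb was level, and Pdgfb, the endothelial ligand, was at 51.6 CPM and 33.0 CPM (0.640, 0.491 to 0.838) here and at 258 CPM in endothelial cluster 8.

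Of 22 measured genes of calcium and potassium handling, 15 were above 1 (54.3% of all genes were) and 4 at least 2-fold higher (2.67% of all genes). Pln had 98 control and 588 mutant counts, 53.2 CPM and 133 CPM (2.50, 2.02 to 3.13), and 1.97 when the CPM of single cells were averaged, but within the smooth muscle side it was at 517 CPM and 475 CPM (0.918, 0.739 to 1.15). Cacna1c, the voltage-gated calcium channel of smooth muscle, was at 12.0 CPM and 26.0 CPM (2.18, 1.37 to 3.61). Trpc6, a cation channel, went the other way at 62.5 CPM and 37.6 CPM (0.601, 0.471 to 0.770), as did its pericyte side level (68.2 CPM and 46.3 CPM). Of 17 measured vasoactive receptors and cGMP genes 11 were above 1 and 2 at least 2-fold higher, against the same 54.3% and 2.67% of all genes. Avpr1a, the vasopressin receptor of vessels, had 3 control and 79 mutant counts, a ratio of 11.0 (3.62 to 54.3), and Htr1b, a serotonin receptor, 8 and 55 counts (2.86, 1.36 to 6.96). Pde3a, which breaks down cyclic nucleotides, was at 180 CPM and 292 CPM (1.62, 1.43 to 1.83), and Agtr1a, the angiotensin receptor, at 77.7 CPM and 58.6 CPM (0.754, 0.613 to 0.932).

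Basement membrane genes were mostly lower in mutant cells. Of 17 members 13 had a ratio below 1 (45.7% of all genes did), with a median log2 ratio of -0.37. Col15a1 was lowest at 61.4 CPM and 19.5 CPM (0.317, 0.237 to 0.423), the member that was at least 2-fold lower (0.66% of all genes were). In the other direction 3 members were at least 1.5-fold higher (8.44% of all genes), among them Col4a5 at least 2-fold, on 8 and 54 counts (2.81, 1.33 to 6.84). Col4a1, the main collagen of the vascular basement membrane, was at 3773 CPM and 2888 CPM (0.765, 0.743 to 0.788), Nid1 at 387 CPM and 267 CPM (0.690, 0.628 to 0.758), and Col18a1, the source of endostatin, at 619 CPM and 387 CPM (0.625, 0.580 to 0.675). On the pericyte side 12 of 16 were below 1 (45% of genes on that side were), with a median of -0.27 against 0.03 over all genes there. Col4a1 was at 4149 CPM and 3590 CPM (0.865, 0.839 to 0.892) on that side. On the smooth muscle side the list leaned the other way: 8 of 11 measured members were above 1 (53.5% of genes on that side were), 3 at least 2-fold higher (9.01%), with a median of 0.35. Col4a1, with 97 control counts there, was at 522 CPM and 1062 CPM (2.03, 1.65 to 2.53).

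Fibrillar and elastic matrix genes split. Of 21 members 14 were below 1 (45.7% of all genes were), with a median of -0.27, yet 5 were at least 2-fold higher (2.67% of all genes). Fn1, fibronectin, was at 770 CPM and 464 CPM (0.602, 0.562 to 0.645) and Col5a3 at 1238 CPM and 763 CPM (0.617, 0.584 to 0.650). Timp3, an inhibitor of metalloproteinases, was at 214 CPM and 507 CPM (2.37, 2.13 to 2.65), and by a similar ratio on the pericyte side (2.28, 2.01 to 2.58). The microfibril genes Mfap4 (5 and 83 counts, 6.92, 2.85 to 21.9) and Mfap5 (9 and 99 counts, 4.58, 2.32 to 10.3) and the elastin-binding Emilin1 (38 and 213 counts, 2.33, 1.65 to 3.39) were higher too. When the CPM of single cells were averaged, Timp3 (1.90) and Mfap5 (1.72) were no longer past 2-fold, and in cells thinned to 1000 UMIs Mfap5 was at 1.999. On the smooth muscle side 9 of 16 measured members were at least 2-fold higher in the mutant, where 9.01% of 4018 genes were. The median cell of that side also differed in markers of other types: fibroblast markers were at 361 CPM (control) and 739 CPM (mutant), and pericyte markers at 3459 CPM and 6559 CPM, and their part was not tested. Mfap5 had 0 and 93 counts there and Col5a3 2 and 182 counts. On the pericyte side Mfap5 was lower instead, on 9 and 5 counts (0.287, 0.0755 to 0.953).

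Several secreted signals of mural cells were higher in the mutant library. Of 7 measured signals to the endothelium 6 were above 1 (54.3% of all genes were) and 3 at least 2-fold higher (2.67% of all genes): pleiotrophin (Ptn, 40 and 505 counts, 5.26, 3.81 to 7.45), Cxcl12 (31 and 251 counts, 3.37, 2.32 to 5.07) and adrenomedullin (Adm, 17 and 115 counts, 2.82, 1.69 to 5.004). Ptn and Cxcl12 stood higher in the endothelial clusters (424 CPM and 368 CPM, 377 CPM and 510 CPM) than here (21.7 CPM and 114 CPM, 16.8 CPM and 56.8 CPM). One mutant cell held 23.8% of the Ptn counts. Angpt2, the ligand that loosens the contact between pericytes and endothelium, was lower, at 158 CPM and 106 CPM (0.669, 0.576 to 0.777). Of 21 immediate early and stress genes 16 were above 1, against 54.3% of all genes, and none 2-fold apart, with Egr1 the highest at 647 CPM and 1122 CPM (1.74, 1.63 to 1.85). In the endothelium its ratio was 1.17. Of 13 glycolysis and hypoxia genes 9 were above 1 and 1, Adm again, was at least 2-fold higher, and of 12 RhoA and motility genes 8 were above 1 and none was 1.5-fold apart.

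The genes ranked farthest apart included several tied to few cells or to other cell types. Col14a1 had 3 control and 417 mutant counts, 1.63 CPM and 94.4 CPM, a ratio of 57.9 (19.7 to 282). Thinned to 1000 UMIs, 0 of 173 control cells (interval up to 2.11%) and 24 of 476 mutant cells (5.04%) held a Col14a1 UMI, against 0.169% and 0.081% of endothelial cells. At full depth it was found in 1.42% and 11.3% of cells. Sfrp2, a Wnt modulator, was at 5.98 CPM and 92.6 CPM (15.5, 8.57 to 31.3), but endothelial cells held 32.1 CPM and 136 CPM. At 1000 UMIs 6.09% of mutant cells and 5.19% of mutant endothelial cells had a UMI. Its detection in mutant cells was thus close to that in mutant endothelium, and the source of these UMIs was not tested. The median depth of endothelial cells was 4914.5 UMIs and 7159.5 UMIs. Dcn was at 10.3 CPM and 59.1 CPM (5.72, 3.59 to 9.66), and at 1.81 it was no longer past 2-fold when the CPM of single cells were averaged.

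Cd74 and the class II genes H2-Ab1, H2-Eb1 and H2-Aa, known from antigen-presenting cells, were higher in the mutant by 4.87 (3.77 to 6.39), 5.35 (3.53 to 8.47), 4.68 (3.20 to 7.10) and 3.29 (2.32 to 4.79). A single mutant cell of 15833 UMIs held 47.6% of the Cd74 and 51.3% of the H2-Ab1 counts, and without it the ratios were 2.56 (1.96 to 3.39) and 2.61 (1.69 to 4.21), while H2-Aa was at 1.73. Without the cells that carried at least 2 markers of another type, Cd74 was at 0.795. Cd74 is itself among those markers.

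Among lower genes were Amelx, Enam, Ambn, Clu, Fxyd3 and Krt14, known from dental epithelium. Amelx was at 3731 CPM and 1075 CPM (0.288, 0.278 to 0.299). A single control cell of 42156 UMIs, the deepest control cell of the cluster, held 67.6% of the Amelx, 74.3% of the Enam and 71.8% of the Clu counts, and it held 332 Rgs5 UMIs as well. Without it Amelx was at 1237 CPM and 1075 CPM (0.869, 0.826 to 0.914) and Enam had a ratio of 0.999, beside endothelial levels of 1347 CPM and 1007 CPM for Amelx. Another control cell held 63.7% of the Calb1 counts, without which the Calb1 ratio moved from 0.151 to 0.410, and a further control cell 60.5% of Spp1, without which its ratio moved from 0.459 to 1.15. Gm10709, Gm8797 and Cwc22 were lower by ratios of 0.00124, 0.185 and 0.238, and their endothelial ratios were 0.0053, 0.132 and 0.205, so they parted in both. Erdr1 was higher at 3.05 here and 2.42 in the endothelium.

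Alpl and Ptgis were lower without any cell holding more than 12.8% of a library's counts. Alpl, tissue-nonspecific alkaline phosphatase, which mineralising cells and some pericytes carry, had 1129 control and 1283 mutant counts, 613 CPM and 290 CPM (0.473, 0.437 to 0.513). The difference lay on the pericyte side, at 679 CPM and 358 CPM (0.528, 0.485 to 0.574), and on the smooth muscle side it was at 86.1 CPM and 108 CPM (1.26, 0.746 to 2.26). Ptgis, prostacyclin synthase, which makes the vasodilator prostacyclin, was at 93.5 CPM and 44.4 CPM (0.475, 0.385 to 0.586). On the smooth muscle side it was at 797 CPM in the 20 control cells (148 counts) and 133 CPM in the 128 mutant cells (161 counts), a ratio of 0.167 (0.133 to 0.210). Stmn1, a microtubule regulator, was at 142 CPM and 65.9 CPM (0.463, 0.390 to 0.549), and no longer past 2-fold with stricter cells (0.509), in thinned cells (0.727) or with averaged single-cell CPM (0.564). The remaining ranked genes, Cxcl2, Dmp1, Adamtsl1 and Pcp4l1, had ratios of 4.05, 3.84, 3.19 and 2.66. A single mutant cell held 30.04% of the Cxcl2 counts, whose ratio was 1.52 without cells that carried markers of other types, and a single control cell 41.7% of the Dmp1 counts, and on the pericyte side Dmp1 was at 0.842.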

How the data were processed

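Droplet libraries of 1 control and 1 Memo1;K14CRE mouse were processed with Cell Ranger, Seurat 3 and the mm10 build, per the submitters' processing notes. The deposited matrices hold UMI counts per gene and cell, and the deposited cell table gives the authors' cluster numbers. No cells were removed beyond their filters, which were not given in the sources used here, and doublets were not called. Counts were summed per library and cluster and divided by the total (CPM). Ratios carry exact 95% conditional Poisson intervals, and shares Clopper-Pearson intervals. Genes needed 50 counts over both libraries, and a ratio of at least 2 or at most 0.5 was counted. With 1 library per group no test was possible. The script for ratios was tested on simulated data. Work used Python 3.11.15, numpy 2.4.6, scipy 1.17.1 and pandas 2.3.3; edgeR 4.0.16 and DESeq2 1.42.0 (R 4.3.3) gave only alternative scaling factors.

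Named genes were all members of the contractile and pericyte lists and at most 6 of any other list with bounds farthest from 1. Named by rank were the 15 genes in each direction with bounds farthest from 1 among those of at least 50 CPM. That ranking skipped genes of haemoglobin, ribosomes and mitochondria, as well as Xist, Tsix and genes of the Y chromosome. Other genes of the X chromosome were not skipped. The 30 genes farthest above other clusters after adding 10 CPM were also named. Genes leading the smooth muscle and pericyte sides were added. The cells and lists were chosen with earlier results of these data known.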

Additional observations from a re-analysis of the deposited data

Results flagged for a closer look

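Of 179 named genes, 26 had a ratio of mutant over control on 1 side of 1 in cluster 10 and on the other side in the endothelial clusters of the same suspensions, with both counting intervals apart from 1. The difference between the cell types was not tested, and many genes were looked at. Of these, 7 were past 2-fold in cluster 10. Alpl was at 0.473 in cluster 10 and 1.51 in endothelium, and Ptgis at 0.475 and 1.18. Ptn was at 5.26 in cluster 10 and 0.869 in endothelium. Cd74 was at 4.87 and 0.851, H2-Ab1 at 5.35 and 0.733, H2-Eb1 at 4.68 and 0.790, and H2-Aa at 3.29 and 0.778. A single mutant cell held between 44.5% (H2-Eb1) and 51.3% (H2-Ab1) of the mutant counts of the last 4.

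The other 19 were less far apart in cluster 10. Lower here and higher in endothelium were Rgs5 (0.937 and 1.40), Cspg4 (0.713 and 3.13), Steap4 (0.872 and 1.54), Cox4i2 (0.886 and 1.76), Fabp4 (0.754 and 1.28), Nr2f1 (0.882 and 2.68) and Col5a3 (0.617 and 2.56). Fn1 (0.602 and 1.08), Jag1 (0.770 and 1.13) and Il6 (0.788 and 1.46) had the same order. Several of these genes were low in endothelium, where Nr2f1 was at 1.04 CPM and 2.79 CPM and Col5a3 at 1.64 CPM and 4.19 CPM. Rgs5 was at 36.6 CPM and 51.1 CPM there, against 18066 CPM and 16922.5 CPM in cluster 10. The endothelial ratio of Cspg4 had an interval of 1.09 to 12.3. The source of these low counts was not tested. Higher here and lower in endothelium were the contractile genes Myl6 (1.29 and 0.794) and Smtn (1.79 and 0.872), Mef2c (1.5004 and 0.951) and Tgfb1i1 (1.23 and 0.835), Mt1 (1.11 and 0.684), Aldoa (1.10 and 0.908), Rhob (1.09 and 0.917), mt-Co2 (1.03 and 0.936) and mt-Co3 (1.06 and 0.959).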

How the results depend on the processing

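No paired analysis was possible because each group is 1 library. Of 1423 values for 179 named genes under other scalings or cell choices, 57 values of 37 genes lay on the other side of 1 from the reported ratio. Of these, 9 values belonged to 7 genes past 2-fold and are given below; the cause was not tested. Counts of genes at least 2-fold higher and lower were 536 and 177 with a minimum of 20 counts, 930 and 940 with none, and 65 and 19 in cells thinned to 1000 UMIs. The number of genes tested changed in each of these settings, so these counts cannot be compared with the 243 and 60 above. With averaged single-cell CPM, over the same 9095 genes, the counts were 576 and 237. With stricter cell filters (125 control and 367 mutant cells) the contractile median log2 ratio was 0.45 and the cluster's share 3.08% and 4.99%. A further alternative left out cells holding at least 2 markers of endothelium, of macrophages and monocytes, of Schwann cells or of dental epithelium. It kept 127 control and 344 mutant cells, and cells with ameloblast or fibroblast markers were not left out for these. There the share was 1.32% and 2.53%, and ratios turned for Mt3 (0.215), Cd74 (0.795), H2-Eb1 (0.881), H2-Aa (0.793), Enam (1.13) and Clu (1.01). Mt3 was at 0.727 in thinned cells, and without the deepest 5% of cells Fxyd3 was at 1.05 and Enam at 1.02. The smooth muscle side share without Acta2, Tagln and Myl9 was 2.89% and 6.72%. The next alternatives were chosen after seeing the data. Without the 4 cells that hold much of a gene, Clu was at 1.02 and Spp1 at 1.11. With pericyte side cells only, 160 of 8262 genes (1.94%) were at least 2-fold higher, the contractile median was 0.0777 and the pericyte gene median 0.0256. There 23 named genes lay on the other side of 1, of which 3 were past 2-fold in the whole cluster: Actg2 (0.917), Mfap5 (0.287) and Dmp1 (0.842). Tagln (0.892), Mylk (0.942), Ppp1r14a (0.861) and Tpm2 (0.987) were among the others. The Actg2 value includes a single control cell with 26.8% of the control Actg2 counts of the cluster. The 20 control cells of the smooth muscle side, with 185737 UMIs, limit every value given for that side.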
